A study of Mus musculus with 9 samples.

Results

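Broad CpG-dense domains are stretches of the mouse genome in which CpG dinucleotides stay closely packed over several kilobases. They were chosen by the count of listed CpG positions, not by methylation level. In each 1 kb autosomal window, the CpG positions listed in either methylation table were counted. Windows with 40 or more were called dense, and runs of 3 or more neighbouring dense windows were taken as domains. A position is listed only where a read fell, so the count also depends on depth. Of the domains' positions, 55.9% are listed for wild type and 81.1% for Tet1-null. Windows with a mean above 8 reads per listed site in the wild-type (WT) table were left out. The rule gave 333 domains among 11150 runs of dense windows, 2.99% of the runs. They held 1098 of the 13918 dense windows, or 7.89%, and 0.0474% of the 2317179 autosomal windows. Of the domains, 261 were 3 windows wide, 50 were 4, 18 were 5, 3 were 6 and 1 was 7 windows wide. Every autosome carried some, from 5 on chromosome 16 to 34 on chromosome 8. The other 10817 runs, of 1 or 2 dense windows, are called narrow islands here.

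The study compared DNA methylation by whole-genome bisulfite sequencing in primordial germ cells of female C57BL/6 embryos at embryonic day 13.5, either WT or Tet1-null. The labels list 4 libraries for WT, made from 1575 to 5251 cells, and 5 for Tet1-null, made from 1400 to 4700. Tet1-null libraries 1 and 2 carry the same input of 3266 cells with different kits, and whether they are separate samples is not stated. In WT, 2 libraries were converted with the Sigma kit and 2 with the Zymo kit, and sequencing runs 1, 2 and 3 held 1, 1 and 2 of them. In Tet1-null, 2 were converted with the Sigma kit and 3 with the Zymo kit, all of them from run 2 (2 libraries) or run 3 (3 libraries). Each genotype is 1 table that pools its libraries, so genotype cannot be told apart from the mix of kits, runs and embryos, and a test on the reads compares these 2 pools, not the genotypes. The labels do not describe the Tet1 allele, and neither the loss of Tet1 nor the cell type was checked in these data.

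CpG islands are stretches rich in G, C and CpG that cover the start sites of most housekeeping genes and of many developmental regulators, and in most tissues they carry little methylation. Long islands are typical of genes for developmental transcription factors, where they are bound by Polycomb complexes in embryonic cells. Germ cell precursors erase most DNA methylation as they settle in the gonad. Tet1 is a dioxygenase with a CpG-binding domain that oxidises 5-methylcytosine, and in embryonic stem cells it binds CpG islands. Bisulfite sequencing reads 5-methylcytosine and 5-hydroxymethylcytosine alike, so the methylation level below, the share of reads that kept a C, covers both.

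The sequence of these domains is shown by the promoters of genes matched to the widest and to the most methylated ones. A RefSeq promoter (build GRCm38.p6) was placed where the spacing of its CpGs was found among the listed mm9 positions. Each line gives the 250 bases before the start site, 5′ to 3′ along the gene, and capitals mark each CpG. The mm9 places are chr4:48057927-48058176 on the plus strand for Nr4a3, chr8:94880020-94880269 on the minus strand for Crnde, chr11:74983758-74984007 on the minus strand for Hic1, chr1:42752363-42752612 on the plus strand for Pou3f3, chr9:95307690-95307939 on the minus strand for Chst2 and chr12:105711490-105711739 on the plus strand for Gm10000.
Nr4a3: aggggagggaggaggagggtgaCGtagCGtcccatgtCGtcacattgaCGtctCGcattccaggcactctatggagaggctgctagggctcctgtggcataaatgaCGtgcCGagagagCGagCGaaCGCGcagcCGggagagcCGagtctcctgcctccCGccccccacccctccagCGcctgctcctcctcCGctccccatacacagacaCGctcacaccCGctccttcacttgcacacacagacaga
Crnde: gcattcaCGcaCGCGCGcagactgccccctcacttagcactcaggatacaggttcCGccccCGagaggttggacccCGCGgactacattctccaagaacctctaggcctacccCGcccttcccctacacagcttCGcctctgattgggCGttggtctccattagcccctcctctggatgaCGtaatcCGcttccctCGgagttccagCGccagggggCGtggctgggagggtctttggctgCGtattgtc
Hic1: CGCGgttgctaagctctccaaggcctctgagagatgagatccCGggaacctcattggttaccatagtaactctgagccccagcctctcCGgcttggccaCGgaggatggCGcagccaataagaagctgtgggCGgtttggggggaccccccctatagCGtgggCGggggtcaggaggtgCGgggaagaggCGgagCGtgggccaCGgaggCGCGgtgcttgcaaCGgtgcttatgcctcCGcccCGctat
Pou3f3: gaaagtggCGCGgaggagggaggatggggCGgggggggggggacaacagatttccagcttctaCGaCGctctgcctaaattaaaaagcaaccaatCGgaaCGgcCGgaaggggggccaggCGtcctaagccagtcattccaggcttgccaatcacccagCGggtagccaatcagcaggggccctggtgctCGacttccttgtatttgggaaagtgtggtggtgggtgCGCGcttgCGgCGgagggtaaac
Chst2: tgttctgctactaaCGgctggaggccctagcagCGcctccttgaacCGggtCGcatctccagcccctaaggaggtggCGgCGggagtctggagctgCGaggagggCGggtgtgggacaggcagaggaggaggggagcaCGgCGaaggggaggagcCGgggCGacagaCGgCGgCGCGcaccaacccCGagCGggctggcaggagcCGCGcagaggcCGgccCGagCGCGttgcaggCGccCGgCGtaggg
Gm10000: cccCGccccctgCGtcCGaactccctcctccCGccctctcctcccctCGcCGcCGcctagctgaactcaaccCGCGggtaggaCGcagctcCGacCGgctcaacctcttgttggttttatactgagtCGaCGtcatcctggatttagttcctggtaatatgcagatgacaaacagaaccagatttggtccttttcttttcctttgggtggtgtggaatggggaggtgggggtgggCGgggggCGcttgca

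These promoters hold from 15 CpGs (Pou3f3) to 27 (Chst2) in 250 bases. Reads are counted at each CpG, so 1 sequenced fragment can be counted at several neighbouring CpGs. The upper limits below take the counts as independent, and are too low where fragments were counted in this way. Nr4a3, an orphan nuclear receptor gene, had 5 methylated of 32 reads over them in WT, at the CpGs at bases 23, 124 and 130 of the printed sequence, and 0 of 5 in Tet1-null, a count too small to set a level (0 of 5 allows up to 60%). Crnde, a long non-coding RNA gene, had 0 of 22 in WT (up to 13.6%) and 1 of 40 in Tet1-null. Hic1, which encodes a zinc-finger repressor, had 0 of 27 in WT (up to 11.1%) and 1 of 32 in Tet1-null. In Crnde and Hic1 the single methylated read lay on 1 CpG. Chst2, a carbohydrate sulfotransferase gene, had 1 of 10 and 1 of 19, at bases 191 and 47. For Pou3f3, a POU-homeobox gene, and Gm10000, a predicted gene, no WT read covered this stretch, and Tet1-null had 0 of 27 (up to 11.1%) and 0 of 11 (up to 27.3%). The methylated reads of the Gm10000 domain therefore came from other CpGs than those printed.

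In both pools the domains were nearly free of methylation. Over their 63713 CpG positions the WT pool had 1457 methylated of 59165 reads, a level of 2.46% (95% counting interval 2.34 to 2.59), and the Tet1-null pool had 2267 of 111658, or 2.03% (1.95 to 2.11). The level was 0.806 points above that of chrM in WT (0.618 to 0.990) and 0.745 points above it in Tet1-null (0.623 to 0.864). The mitochondrial genome is used here as a background for incomplete conversion and sequencing error, since it carries little CpG methylation. In pooled reads, a low level in every cell and full methylation in a few cells cannot be told apart.

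The Tet1-null level of the domains was lower by a small amount, with a Tet1-null minus WT difference of -0.432 points (-0.584 to -0.284). Over all autosomal windows the sign was opposite, with 3.41% in WT, 4.08% in Tet1-null and a difference of 0.674 points. The domains' difference lay 1.11 points below it (a difference of differences of -1.11, -1.26 to -0.956). On chrM the levels were 1.66% and 1.29%, a difference of -0.371 (-0.537 to -0.211), so the background of the pools differed by nearly as much as the domains did. After subtracting it, the domains' difference was -0.0615 points, with an interval that includes 0 (-0.283 to 0.160). Whether conversion sets the difference in the domains was not tested beyond this subtraction. Depth also differed inside the domains, where WT had 0.929 reads per listed position and Tet1-null 1.75, a ratio of 1.89 against 1.54 over all autosomal windows.

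Narrow islands, which by the rule differ from the domains in run length alone, were more methylated over their summed reads. Their levels were 3.02% in WT and 2.83% in Tet1-null, so the domains lay 0.560 points lower in WT (difference -0.560, -0.689 to -0.426) and 0.801 points lower in Tet1-null (-0.801, -0.887 to -0.712). Medians of single runs went the other way. They were 1.90% in WT and 1.72% in Tet1-null for narrow islands with 50 or more reads in each pool. The domains' medians were 2.15% and 1.82%. In windows of 60 to 69 positions the domains were higher in both pools, 2.60% and 2.15% against 2.49% and 2.06%. With 80 or more positions they were higher in WT alone (3.26% against 3.08%). In the other density classes they were lower. The narrow islands' own Tet1-null minus WT difference was -0.192 (-0.242 to -0.142), smaller in size than the chrM difference of -0.371. The domains' difference exceeded that of narrow islands by -0.241 points (-0.398 to -0.0827). Among narrow islands, runs of 1 window differed by -0.104 and runs of 2 by -0.369. The domains could not be told from runs of 2 in their difference (-0.0632, -0.233 to 0.107) or in their WT level (-0.0288, -0.168 to 0.115). When reads were thinned to equal depth, the excess over narrow islands was -0.0701 points, with an interval that includes 0, and with a density limit of 50 positions in place of 40 it turned to 0.200 points (-0.0672 to 0.466).

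**Figure D1:**
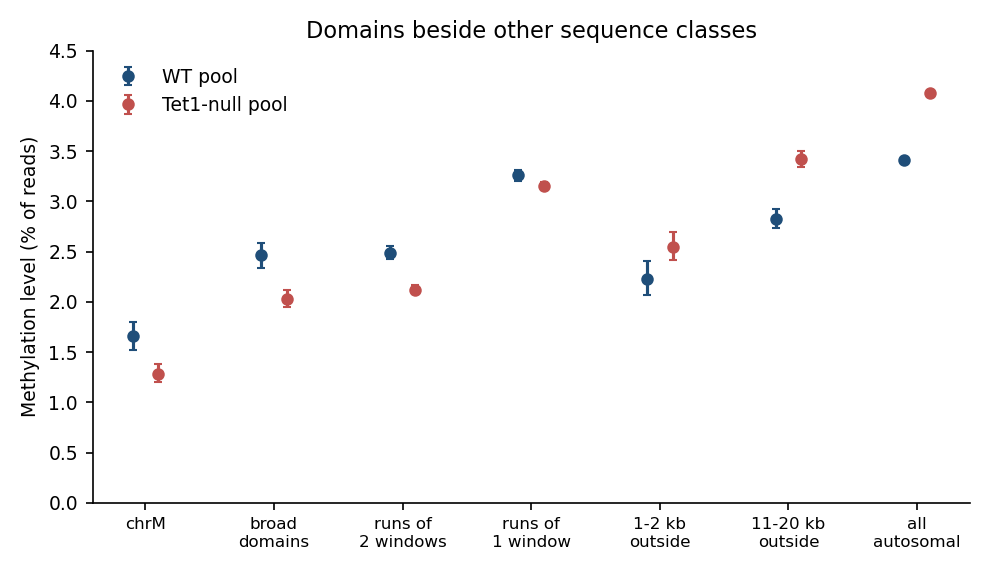
Methylation level (percent of reads, y axis) of chrM, the broad domains, runs of 2 and of 1 dense windows, windows 1 to 2 kb and 11 to 20 kb outside the domains, and all autosomal windows, in the WT pool (blue) and the Tet1-null pool (red). Bars are Wilson 95% counting intervals; Tet1-null lies below WT on chrM and in the dense classes, and above WT outside the domains and over all autosomal windows.

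In 1 kb windows the sign differed between the domains and their flanks. Windows 1 to 2 kb outside had 2.23% in WT and 2.55% in Tet1-null, a difference of 0.320 (0.0988 to 0.537), and windows 11 to 20 kb outside had 2.83% and 3.42%, a difference of 0.593. The domains' difference was 0.752 points lower than that of the near flanks (-0.752, -1.02 to -0.487). From the domains to the near flanks the level went opposite ways in the pools. In Tet1-null the near flanks were 0.518 points above the domains (0.358 to 0.682), and in WT they were lower (-0.235, -0.442 to -0.0216). In bins of 250 bases that meet at the edge, the difference was -0.382 inside (-0.817 to 0.0282) and 0.476 outside (-0.0151 to 0.939). In the next bins it was 0.0183 from 250 to 500 bases inside the edge and -0.0465 from 250 to 500 bases outside. All these intervals include 0. With the chrM difference subtracted, the domains stood at -0.0615 points, with an interval that includes 0. The same subtraction would raise the value of the flanks by the same amount, so it leaves the contrast of -0.752 unchanged.

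Within the domains the middle differed more than the ends. The 666 windows at the edges had 2.30% in WT and 2.10% in Tet1-null, a difference of -0.202 (-0.396 to -0.0133). The 432 inner windows had 2.70% and 1.94%, a difference of -0.766 (-1.01 to -0.530). The edge difference minus the inner one was 0.564 points (0.257 to 0.871). The position showed in WT, whose edges were 0.406 points below its inner windows (-0.406, -0.667 to -0.151), while the Tet1-null edges were 0.158 above (-0.0103 to 0.324). Bins of 250 bases were summed only up to 1500 bases inside the edge, so the deeper parts of wider domains are not covered. Of these inside bins the last, from 1250 to 1500 bases, had the highest WT level. It was 3.10% (2.76 to 3.47) against 1.93% in Tet1-null (1.74 to 2.14).

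Inner windows were also denser, with a median of 59 listed positions against 51 at the edges. Among windows with 40 to 59 positions the difference was -0.116 at the edges (-0.354 to 0.114) and -0.655 in inner windows (-1.0 to -0.326). Among those with 60 or more it was -0.369 and -0.876. The edge difference minus the inner one was 0.539 points in the first class (0.128 to 0.950) and 0.507 in the second (0.0323 to 0.982), a comparison chosen after the data were seen. The classes match density only in part, since inner windows still held more positions on average, 49.6 against 47.9 in the first class and 76.4 against 72.6 in the second.

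**Figure D2:**
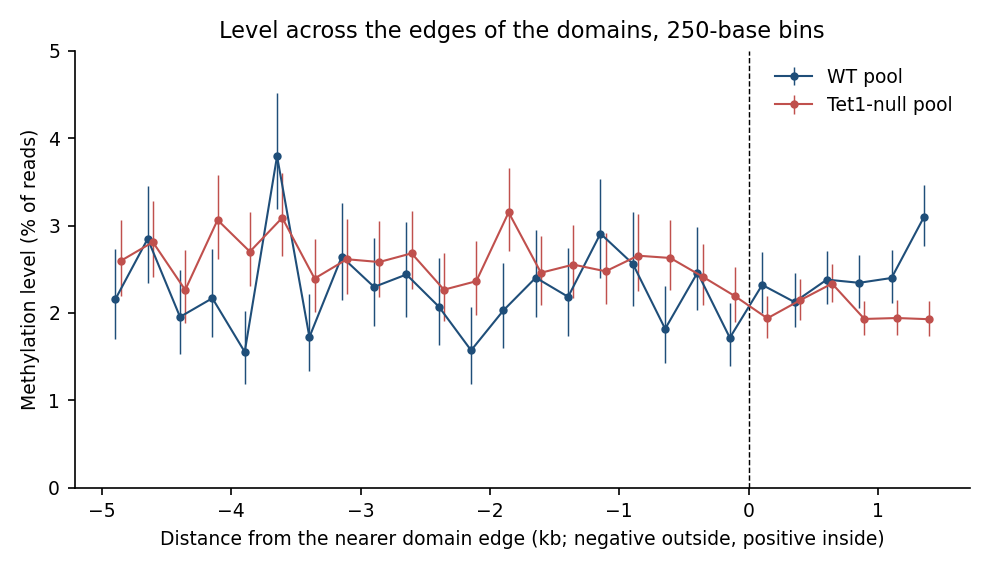
Methylation level (percent of reads, y axis) in 250-base bins by distance from the nearer domain edge (kb, negative outside and positive inside), for the WT pool (blue) and the Tet1-null pool (red), with Wilson 95% counting intervals. Tet1-null stays near 2% in the inside bins, which end 1500 bases from the edge, and the last WT point, 1250 to 1500 bases inside, stands at 3.10%.

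By density, the difference inside the domains ran from -0.314 points in windows with 40 to 44 positions (2.29% and 1.98%, -0.685 to 0.0376) to -0.960 in windows with 80 or more (3.26% and 2.30%, -1.45 to -0.503). In between it was -0.256 at 45 to 49, -0.292 at 50 to 59, -0.449 at 60 to 69 and -0.571 at 70 to 79 positions, and the intervals of neighbouring classes overlap. Narrow islands changed sign over the same range. Their difference was 0.400 at 40 to 44 positions (0.271 to 0.527), -0.00522 at 45 to 49, and between -0.358 and -0.431 in every denser class. The excess of the domains over narrow islands with window densities matched was -0.243, a comparison chosen after the data were seen. Just outside the density limit, the 39 windows next to a domain that hold 35 to 39 positions had 1.38% in WT and 2.08% in Tet1-null, a difference of 0.702 with an interval that includes 0 (-0.163 to 1.48).

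**Figure D3:**
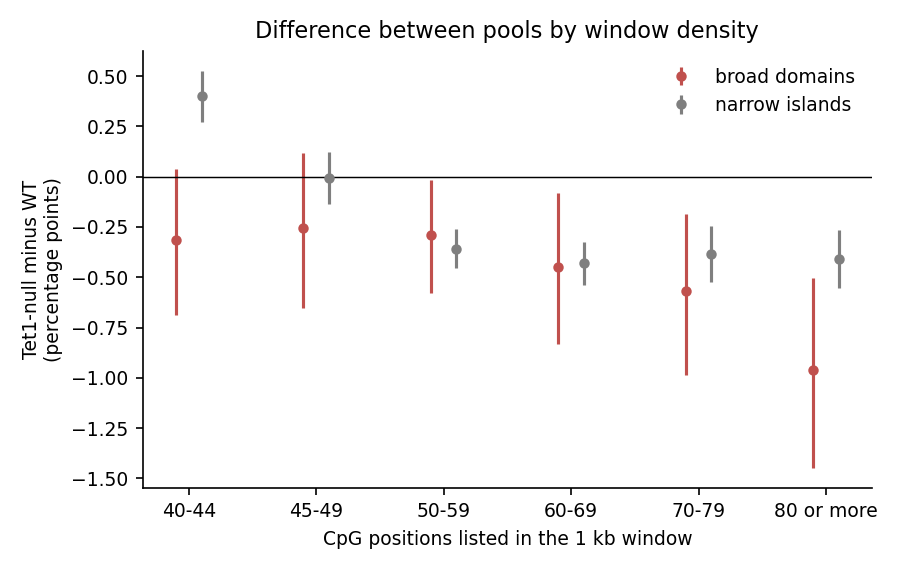
Tet1-null minus WT level (percentage points, y axis) by the number of CpG positions listed in a 1 kb window (x axis), for windows of broad domains (red) and of narrow islands (grey), with 95% counting intervals (Newcombe). At 40 to 44 positions the narrow islands lie at 0.400 and the domains at -0.314; at 80 or more they lie at -0.407 and -0.960.

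By depth, the difference was smallest in size in the deepest domains, though the intervals of the groups overlap. In 3 groups of 111 domains ordered by WT reads per position, the shallowest had 2.61% in WT and 1.99% in Tet1-null (-0.622), the middle group 2.52% and 1.96% (-0.564) and the deepest 2.33% and 2.15% (-0.183, -0.425 to 0.0547). The Tet1-null level stayed near 2% in all 3, and the WT levels had overlapping intervals. At single CpGs the values given here also rose with depth, but their intervals overlap and set no trend. Sites whose shallower pool had 1 read differed by -0.405, those with 2 by -0.342, those with 3 to 4 by -0.178 and those with 5 to 9 by 0.200 (-1.49 to 1.75). Sites with reads in WT alone had a level of 2.67%, and those with reads in Tet1-null alone 2.04%. The part of depth or amplification in the difference was not tested.

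Along the chromosomes, the domains of 16 of 19 autosomes had a lower level in Tet1-null. The interval lay below 0 on 5 of them (chromosomes 1, 7, 10, 12 and 13). It was widest apart on chromosome 1, where 13 domains had 2.92% in WT and 1.33% in Tet1-null, a difference of -1.59 (-2.34 to -0.923). Chromosomes 6, 16 and 19 had a higher value in Tet1-null, with intervals that include 0; the 5 domains of chromosome 16 had 1.58% and 2.54%. Narrow islands were lower on 18 autosomes, all autosomal windows were higher on 19, and the domains' difference was below that of narrow islands on 13. By width, the difference was -0.470 in domains of 3 windows and -0.394 in those of 4. Domains of 5 windows differed by -0.301 with an interval that includes 0 (-0.818 to 0.168), and the single one of 7 windows by 1.11 (-1.13 to 3.05).

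Single domains spread around these levels. A domain had a median of 184 listed positions (126 to 367), 167 WT reads (45 to 411) and 323 Tet1-null reads (149 to 655). WT levels had a median of 2.15%, with the middle of the domains (first to last quartile) between 1.27% and 3.38% and a highest value of 12.3%. Tet1-null levels had a median of 1.82%, quartiles of 1.18% and 2.70% and a highest value of 12.7%. The difference had a median of -0.392 points. It was below 0 in 194 domains and above 0 in 139, so 58.3% were lower in Tet1-null, against 50.4% of the 5997 narrow islands with 50 or more reads in each pool. No methylated read was seen in 21 domains in WT, where the depth allows up to 1.26% to 4%, and in 7 in Tet1-null (0.845% to 1.66%). No domain was in common, which says little at counts this small among 333. Across the 333 domains, which share libraries and depth, Pearson r between the pools was 0.0596 and Spearman rho was 0.0138, given as a description. Domains with a high measured level in WT mostly did not have one in Tet1-null. Each level rested on few methylated reads, and counting error lowers such correlations. They therefore do not show that the pools were methylated at different domains.

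**Figure D4:**
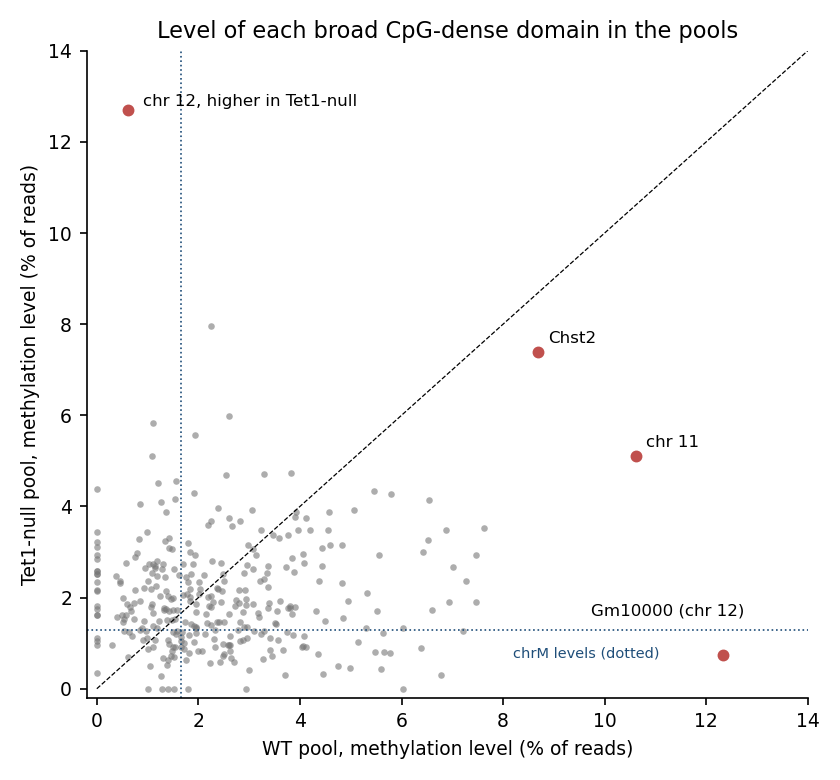
Each point is 1 of the 333 domains, placed by its methylation level in the WT pool (x axis) and in the Tet1-null pool (y axis), in percent of reads; the dashed line marks equal levels, the dotted lines the chrM levels, and red 4 domains named in the text. Most points lie under 5% in both pools, and no point reaches 10% in both.

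At single sites a weak link between the pools was seen. Among the 23558 domain sites listed in both pools, 812 had a methylated read in WT, and the Tet1-null level at these was 4.06% (3.26 to 5.05), against 1.94% (1.82 to 2.06) at the other 22746. Both pools had 3 or more reads at 1564 sites, of which 94.5% were at 0 in WT and 94.4% in Tet1-null. Above 50% were 17 sites in WT and 14 in Tet1-null, and none in both. Counts this small among 1564 sites would rarely overlap in unrelated pools, so the lack of overlap says little.

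No domain retained methylation at 10% or more in both pools. Over that level were 2 domains in WT and 1 in Tet1-null; at 5% or more there were 32 and 8, and 2 in both. Of the tested narrow islands, 83 (1.38%) were at 10% or more in both pools and 26 (0.434%) at 50% or more. No tested domain was at either level in both pools. At a share of 0.434% few would be met among 332 tested domains, so the lack of one at 50% or more says little. A domain's level averages 3 or more windows and that of a narrow island 1 or 2, so the shares at 10% or more are not a matched comparison. Of the 1012 domain windows given below, 1 was at 10% or more in both pools. The pair above 5% in both was the Chst2 domain at chr9:95305001-95308000, with 8 of 92 reads in WT (8.70%) and 11 of 149 in Tet1-null (7.38%), and a domain at chr11:82743001-82747000 with no matched promoter, with 26 of 245 (10.6%) and 18 of 352 (5.11%). Neither passed Fisher's test between the pools (Fisher adjusted p of 1 and 0.357). Next in mean level, after the domains called on chromosome 12, was chr19:56796001-56799000, with no matched promoter, 8 of 105 reads in WT (7.62%) and 8 of 227 in Tet1-null (3.52%).

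Fisher's exact test (two-sided, Benjamini-Hochberg adjustment over 6329 dense runs with 50 or more reads in each pool) was run on 332 of the 333 domains. The Gadd45g domain had 45 WT reads and was not tested. At an adjusted p under 0.05 and 10 points or more, 1 domain was higher in Tet1-null and 1 was lower. Over all runs tested 0.363% were called higher and 0.363% lower, so the domains' share is near the background. With no minimum size, 1 domain was higher and 5 lower (0.395% and 0.474% of all runs). The 4 added by dropping the minimum were all lower in Tet1-null. They are the domain of Irs1, the insulin receptor substrate (chr1:82286001-82289000, 6.78% and 0.299%, Fisher adjusted p = 0.0167), that of Ptma, prothymosin alpha (chr1:88421001-88425000, 5.65% and 0.804%, Fisher adjusted p = 0.0382), one on chromosome 5 (chr5:52504001-52508000, 4.75% and 0.500%, Fisher adjusted p = 0.0431) and one on chromosome 18 (6.03% and 0 of 355 reads, Fisher adjusted p = 0.00776).

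The domain that was higher in Tet1-null lies at chr12:109153001-109156000 and has no matched promoter. It had 1 methylated of 163 reads in WT (0.613%) and 32 of 252 in Tet1-null (12.7%), a difference of 12.1 points (7.57 to 16.8, Fisher adjusted p = 0.000448). In Tet1-null its windows had 0%, 22.3% and 10.5%, and 18 of its 32 methylated reads lay in 200 bases that held 29 reads, with at most 3 reads on a site. Reads at neighbouring CpGs can come from the same fragment, and Fisher's test counts each of them. The call was lost when reads were thinned to equal depth (5.95 points, Fisher adjusted p = 1) and when only sites 100 bp apart were kept (8.33 points, Fisher adjusted p = 1).

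The domain that was lower in Tet1-null lies at chr12:105709001-105712000 and holds the promoter of Gm10000 printed above. It had 19 methylated of 154 reads in WT (12.3%) and 2 of 268 in Tet1-null (0.746%), a difference of -11.6 points (-17.7 to -6.88, Fisher adjusted p = 0.000176). Its WT windows had 3.17%, 19.6% and 17.5%, and 9 of the 19 methylated reads lay in 200 bases with 20 reads. With sites 100 bp apart it no longer passed (-11.7 points, Fisher adjusted p = 1), and no domain did.

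**Figure D5:**
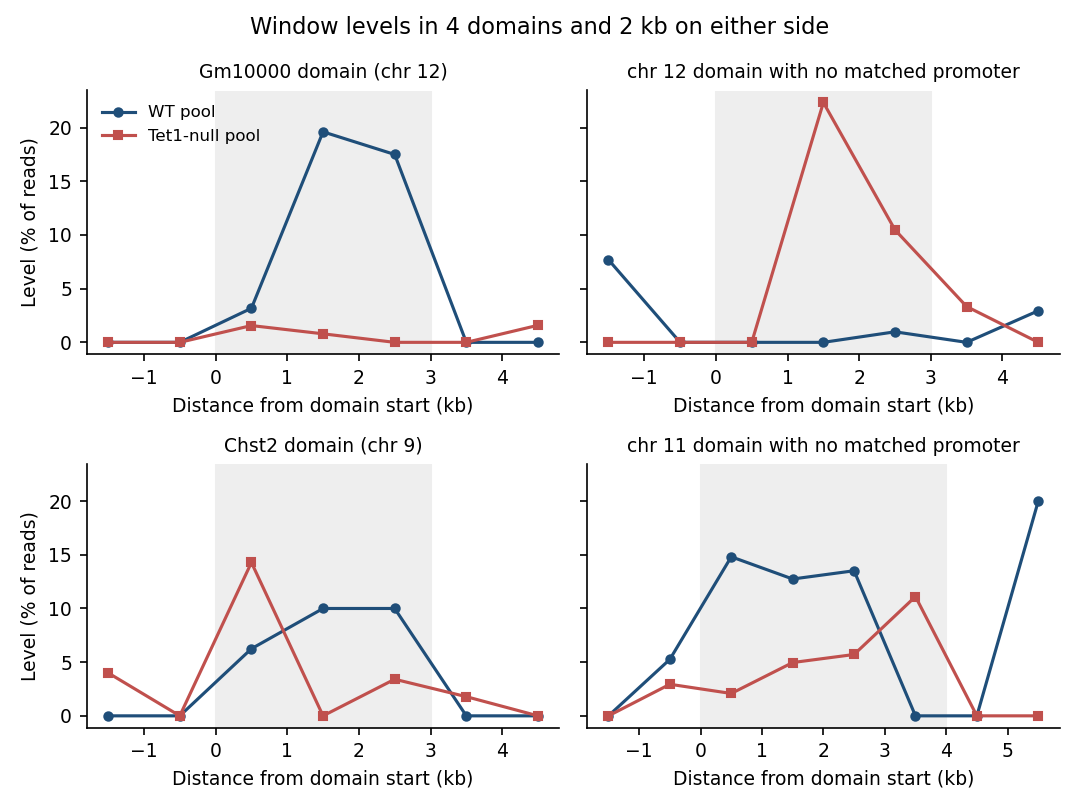
Methylation level (percent of reads, y axis) of each 1 kb window in 4 domains (grey) and 2 kb on either side (x axis, kb from the domain start), in the WT pool (blue circles) and the Tet1-null pool (red squares). WT windows of the Gm10000 domain reach 19.6% and Tet1-null windows of the other chromosome 12 domain 22.3%; a point outside the domains can rest on a few reads.

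The 5 widest domains were low in both pools. At chr4:48056001-48062000 the Nr4a3 domain had 7 of 408 reads methylated in WT (1.72%) and 4 of 459 in Tet1-null (0.871%). At chr8:94879001-94885000 the Crnde domain had 1.70% and 2.05%. The domain of Hic1 at chr11:74979001-74985000 had 15 of 383 (3.92%) and 21 of 543 (3.87%), the nearest to equal of the 5. Pou3f3 lies in a domain at chr1:42751001-42756000 with 1.10% and 0.911%. The widest, chr6:84533001-84540000, had no matched promoter and 1.51% and 2.62%. None passed the test, each at a Fisher adjusted p of 1.

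Developmental regulators were frequent among the genes named at the domains. Matched promoters lay in 190 of the 333 domains, with 228 genes, and 143 domains had no match. Of these genes, 26 (11.4%) belong to 7 lists of developmental transcription factors and signalling ligands, against 1.57% of the genes matched in narrow islands and 1.19% of those matched elsewhere. No gene of the lists of germline genes or ribosomal proteins was matched in a domain. Narrow islands had 13 and 33, which are 0.229% and 0.581% of their genes. At shares this low few would be met among 228 genes, so their absence is no contrast. The 26 developmental domains had 2.65% in WT and 1.93% in Tet1-null, a difference of -0.714 (-1.28 to -0.199). Domains matched to genes of no list differed by -0.412, with an interval inside that one (-0.628 to -0.204). The 4 Sox domains, given below, had the largest gap among the lists. The level was lower in Tet1-null in 20 of the 26 and higher in 6 (58.3% lower over all domains). None passed the test (smallest Fisher adjusted p = 0.178, over all runs).

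Homeobox genes of the lists, which encode transcription factors that set regional identity, made up 14 of the 26, not counting the Hox clusters. Their domains had 2.61% in WT and 1.97% in Tet1-null (-0.640, -1.38 to 0.0216), with 11 lower and 3 higher. The lists go by gene symbol and are partial. The homeobox genes Pou2f1, Cux1 and Tgif1 and the ligand genes Pdgfa, Tgfb1 and Jag1, also matched in domains, are on none. Barhl2, a factor of retina and brain neurons, had 8 of 216 reads in WT (3.70%) and 1 of 338 in Tet1-null (0.296%). Otx2, needed for the forebrain, had 2.90% and 1.35%, and Lmx1b, a LIM-homeobox factor of the limb and kidney, had 2.33% and 0.906%. On the other side, Meis2, a TALE-homeobox cofactor of Hox proteins, had 2 of 158 (1.27%) and 20 of 487 (4.11%). Hoxb8, from a Hox cluster, had 1.89% and 2.74%.

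The 4 Sox domains showed the largest gap among the lists, 24 of 674 reads in WT (3.56%) and 18 of 1391 in Tet1-null (1.29%), a difference of -2.27 (-4.02 to -0.893). All 4 were lower in Tet1-null. Sox1, a factor of neural progenitors, had 5.15% and 1.02%. Sox4 had 6.55% and 4.13%, Sox11 2.22% and 0.562%, and Sox12 1.05% and 0.500%, and these 3 belong to the same subgroup of SoxC factors. The 4 Fox domains had nearly equal levels, 2.46% and 2.44%. Among them Foxo1, a factor controlled by insulin signalling, was at 1.94% and 5.57%, and Foxo3, known for holding oocytes in reserve, at 2.96% and 1.36%. Foxc1 had 1.86% and 1.42%, and Foxp1 3.36% and 2.70%.

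Single domains stood for the remaining lists. Eomes, a T-box factor of early lineages, had 1.72% and 1.01%, Hand2, a bHLH factor of heart and limb, 2.50% and 0.758%, and Wnt3a, a secreted ligand, 1.61% and 2.50%. Igf2, an imprinted growth factor, had 3 of 149 reads (2.01%) and 6 of 290 (2.07%). The protocadherin genes Pcdh7 and Pcdh10, outside the clustered families, had 1.15% and 1.49% together. At the depth of single domains, differences of this size are within counting error.

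Promoter sequence was compared by the share that holds common promoter motifs, as a description with no test. Of the 275 matched in domains, 78.5% held GGGCGG, the core of the GC box bound by Sp1, on either strand of the 300 bases around the start, against 74.5% in narrow islands and 36.0% of all 31396 autosomal promoters of that length. The TATA box letters TATAAA were found in 8.73%, against 4.85% and 13.6%. CCAAT was found in 40%, against 35.5% and 37.3%, and the E-box CACGTG in 9.45%, against 11.1% and 7.14%. The median GC content was 65.3%, against 65.0% and 53.0%, and the median ratio of observed to expected CpG 0.819, against 0.842 and 0.389. The matching needs 10 or more CpGs in a promoter and so favours CpG-rich ones. Over the promoter bases themselves, levels in domains were 2.39% in WT and 2.02% in Tet1-null (-0.369, -0.858 to 0.0907), and domains with a matched promoter differed by -0.441 against -0.423 in those without.

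At the scale of 1 kb windows the share called in the domains was near that over all windows. Fisher's test with adjustment over 363952 autosomal windows called 0.0975% of them higher in Tet1-null and 0.0604% lower, by 20 points or more. Of the 984 domain windows tested, 1 was higher (0.102%) and 0 were lower (68 had an unadjusted p under 0.05; the quasi-binomial F test called 0). At a share of 0.0604% few would be met among 984 windows, so the 0 says little. The window called lies at chr10:79441001-79442000, with 0 of 49 reads in WT and 12 of 46 in Tet1-null (26.1%, Fisher adjusted p = 0.0448). With the quasi-binomial F test, with thinned reads or with sites 100 bp apart no domain window was called. Of the 1012 domain windows with 20 or more reads in each pool, 378 (37.4%) had no methylated read in WT and 250 (24.7%) in Tet1-null, the deeper pool. At 10% or more were 35 in WT, 10 in Tet1-null and 1 in both.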

How the data were processed

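Per the labels, DNA of 4 WT and 5 Tet1-null libraries was bisulfite sequenced, and the authors deposited 1 table per genotype that pools them. As deposited, each lists CpG positions with the fraction of reads that are methylated and the read count. Multiplied, these gave whole methylated reads at 100% of sites (tolerance 0.0005 per read). The WT table lists 13730600 sites with 30386353 reads, and that of Tet1-null lists 16372728 with 46716079. Per the submitters' processing notes, positions are on mm9 and bedtools was among the tools. The aligner, and whether duplicates were removed, was not given in the sources used here. The authors also deposited a filter that removes reads with over 1.2% of unconverted C outside CpG, which can lower levels, chrM included.

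Levels are summed methylated reads over summed reads, with Wilson 95% intervals, and differences with Newcombe intervals; upper limits at 0 use 3 reads. They cover counting error only: reads span several CpGs and carry no molecular identifiers. Fisher's exact test was used because there are read counts but no replicates. CpG density is undercounted where no read fell. No genome of the build was used, so genes were named by CpG spacing: of 13800 RefSeq promoters with 10 or more CpGs, 10712 were matched (60% or more of CpGs listed, 8 or more, at most 1 extra, and a margin of 4 over the next place). Of these, 10693 kept the shift of their neighbours (99.8%), for 9453 genes. Whether the placed coordinates are off by 1 base was not checked against a genome. Domains named were the 5 widest, the 5 highest over both pools and those called; any other was picked with its values in view. The domains and 11 gene lists were chosen with earlier results of these data known. Per-sample columns not used numbered 0. Alternatives changed density, width, depth, site and window settings, the test and the grid. Software was Python 3.11.15, numpy 2.4.6, pandas 2.3.3, scipy 1.17.1, numba 0.67.0 and matplotlib 3.10.9.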

Additional observations from a re-analysis of the deposited data

Results flagged for a closer look

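Dense sequence outside the comparisons also carried methylated reads above the limit that a count of 0 allows. The chrM background, 1.66% in WT and 1.29% in Tet1-null, lies above the limits given here. Passing them therefore does not show methylation beyond that background. On chromosome X, 7 runs chosen by the same rule, with 25 windows, had 3.40% in WT and 3.58% in Tet1-null (limits 0.243% and 0.124%), a difference of 0.180 (-1.16 to 1.38). The 12 dense windows left out for their depth had 20.9% in WT and 9.74% in Tet1-null (limits 0.0109% and 0.00595%), and 6 of them on chromosome 17 held most of those reads, at 20.6% and 7.92%.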

How the results depend on the processing

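No paired analysis was possible because the tables pool each genotype's libraries, and leaving out single libraries was not run for the same reason. Of 16 alternatives, 11 kept the domains' Tet1-null minus WT difference below 0 with an interval excluding 0, and 5 gave intervals that include 0: -0.206 with 50 or more positions, -0.225 in runs of 5 or more, -0.145 where each pool had 3 or more reads, -0.349 with sites 100 bp apart and -0.0615 with chrM subtracted. With no depth limit the difference was -3.75, and the excess over narrow islands -3.51, since deep windows then enter. That excess kept its direction and side in 10 alternatives (-0.518 with 30 or more positions, -0.813 where each pool had 3 or more reads) and turned to 0.200 with 50 or more positions. It was -0.259 with sites 100 bp apart, -0.0701 thinned and -0.169 as a mean over runs, each with an interval that includes 0. Domains called numbered 1 when thinned, 6 with no minimum difference and 0 with sites 100 bp apart (3 at an unadjusted p under 0.05). Domain windows called numbered 0 by the quasi-binomial F test (106 at an unadjusted p under 0.05), 0 thinned (5), 0 with sites 100 bp apart (0), 2 with the minimum of reads doubled and 2 with no minimum difference. Domains retaining methylation in both pools numbered 2 at 5% or more. Matching on density and leaving out the 2 domains called, both added after seeing the data, changed no call. Beyond the windows and reads that each alternative leaves, the cause was not tested.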

Other observations

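Some further genes matched in broad domains belong to none of the lists. Those given here were picked by name after the matches were seen, others are left out, and they were not counted against narrow islands. Fos, Jun and Junb, subunits of the AP-1 transcription factor, had 1.96%, 2.97% and 3.88% in WT and 1.36%, 1.12% and 2.56% in Tet1-null. Atf3, a stress-induced factor, had 5.32% and 2.10%, and Dusp6, a phosphatase that dampens ERK, 2.21% and 1.82%. Vegfa, the vascular growth factor, had 4.49% and 1.49%, its receptor Flt1 2.74% and 1.95%, and Igf1r, the receptor of insulin-like growth factors, 7.48% and 2.94%. Fgfr3, a fibroblast growth factor receptor, was at 1.10% and 5.84% (Fisher adjusted p = 0.179). Elf2, an ETS factor, had 7.47% and 1.91% (Fisher adjusted p = 0.0607). None of the genes given passed the test.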
